A study of Homo sapiens with 4 samples.

Results

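Heterotrimeric G proteins carry the signal of a G protein-coupled receptor, and their gamma subunits are the smallest of the 3 subunit types. The genes described here are the 10 human gamma subunit genes that the array measured, apart from the photoreceptor subunits GNGT1 and GNGT2. These are GNG2, GNG3, GNG4, GNG5, GNG7, GNG8, GNG10, GNG11, GNG12 and GNG13. They were chosen by name from 17217 genes, through the RefSeq accession in each probe name, and all 10 were found, each with 1 target of 3 probes. HEK293 is an immortal line derived from human embryonic kidney with DNA of an adenovirus, here bought from a cell bank and grown in DMEM with 10% fetal bovine serum. There was 1 group of 4 untreated cultures, each on its own plate with its own RNA extraction and array of a 4-plex slide format, and no other cell line or treatment enters here. The study asked which signalling genes the line contains message for, so the comparison is between each gene and a baseline for zero expression on the same arrays.

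A gamma subunit wraps around a beta subunit as a helix and stays with it for life, and the beta-gamma dimer acts as 1 signalling unit. Cells add a lipid to a cysteine near the end of the gamma chain, and this anchor holds the dimer at the membrane. Most gamma subunits receive a geranylgeranyl lipid, while GNG11 and the retinal subunits GNGT1 of rods and GNGT2 of cones receive a farnesyl lipid. When a receptor activates the trimer, the freed dimer can act on potassium and calcium channels, phospholipase C beta, adenylyl cyclases and phosphoinositide 3-kinases. Some gamma genes are used in most tissues and others are known mainly from neurons or sensory cells.

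All levels are log2 probe intensities. The baseline is the study's rule, the mean plus 2 SD of seminal protein genes on each array, and the distance is a gene's level minus the baseline of the same array. A gene counts as above the baseline where its mean distance over the 4 arrays is above 0. Pearson's r between arrays, across genes, which are not independent replicates, ran from 0.949 to 0.977. The sorted values of replicates 1 and 2 nearly coincided, and so did those of replicates 3 and 4, but not those of different pairs.

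As a check of the label, markers were counted against the background. Of 8 kidney development markers 4 were above the baseline, and the rule called 52.7% of all genes. EPCAM, an epithelial adhesion gene, stood at 3.84 ± 0.90 and SALL1, a kidney transcription factor, at 1.90 ± 0.30 log2 units (SD, n = 4 for each), and limma called these 2. EYA1 and SIX2 stood at 0.11 and 0.038 and were not called. Named after their values were seen, PAX2, PAX8, LHX1 and CDH16 were below the baseline. Of markers of other cells, 6 of 11 measured neuronal genes were above it, NEFL, INA, NEFH, TUBB3, SYT1 and NEFM. CD68 was above it of 8 blood genes, and GNAL and ADCY3 of 7 measured olfactory and taste genes. None of the photoreceptor genes was above it (0 of 12).

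The arrays stood apart in pairs for some of these markers. The neurofilament gene NEFM had levels of 13.57, 8.32, 13.09 and 8.08 log2 units on replicates 1 to 4. The synaptic vesicle gene SYT1 had 9.73, 13.41, 9.80 and 12.71. Replicates 2 and 4 were thus the low arrays for NEFM and the high ones for SYT1, and the groups did not overlap. Other listed markers divided in this way too, such as INA, lower on replicates 2 and 4, and NEFH and GNAL, higher on them. Over all genes, 18.5% had levels on both of replicates 2 and 4 above those of 1 and 3, and 22.2% below. The labels give no difference between these arrays.

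By the rule of the mean distance 6 of the 10 gamma subunits were above the baseline, GNG10, GNG12, GNG4, GNG5, GNG13 and GNG2. Against 52.7% of all genes, the share of the gamma subunits was near the background. The 4 genes GNG10, GNG12, GNG4 and GNG5 were above the baseline on all 4 arrays, which held for 45% of all genes. The same 4 passed a one-sided limma test of the distances against 0, adjusted over all genes, which called 45.9% of all genes. That test used the same standard error, 0.351, for every gene, so its p-values do not measure a gene's own spread. GNG7 and GNG8 were below the baseline on all 4 arrays, as were 39.8% of all genes. The remaining 4 genes, GNG13, GNG2, GNG3 and GNG11, lay within 0.5 log2 units of the baseline on either side. The median distance of the 10 genes was 0.21 log2 units against 0.26 over all genes.

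**Figure D1:**
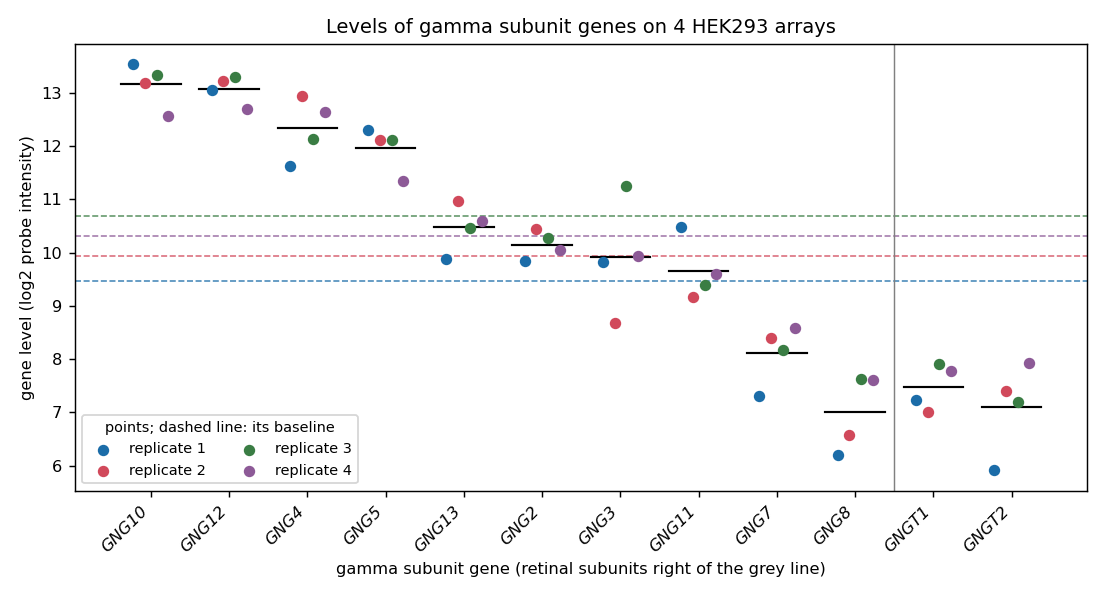
Level of each gamma subunit gene (vertical axis, log2 probe intensity) on the 4 arrays, with 1 point per replicate and a black bar at the mean. Dashed lines are the baselines of the arrays in the same colours, and GNG10, GNG12, GNG4 and GNG5 lie above all of them, while GNG7, GNG8, GNGT1 and GNGT2 lie below all of them.

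The 250 bases before the start are shown for 4 of the genes, chosen after their levels were seen. GNG12 and GNG4 were above the baseline, GNG7 was below it on every array with the most CG dinucleotides, and GNG11, with few, had a mean below it. The sequences are from RefSeq, build GRCh38.p14, written 5′ to 3′ on the strand of the gene, with CG dinucleotides in capitals.
GNG12 (chr1:67833468-67833717, - strand): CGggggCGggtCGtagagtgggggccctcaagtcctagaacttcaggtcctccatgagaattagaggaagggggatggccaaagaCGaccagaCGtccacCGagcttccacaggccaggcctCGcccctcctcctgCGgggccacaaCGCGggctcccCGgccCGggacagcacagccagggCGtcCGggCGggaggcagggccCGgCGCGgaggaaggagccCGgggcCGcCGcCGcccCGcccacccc
GNG4 (chr1:235650609-235650858, - strand): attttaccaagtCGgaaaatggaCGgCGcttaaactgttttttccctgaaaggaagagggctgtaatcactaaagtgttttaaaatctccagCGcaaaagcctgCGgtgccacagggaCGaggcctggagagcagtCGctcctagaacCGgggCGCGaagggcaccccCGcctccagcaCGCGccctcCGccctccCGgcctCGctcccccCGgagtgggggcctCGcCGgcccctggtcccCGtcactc
GNG7 (chr19:2702695-2702944, - strand): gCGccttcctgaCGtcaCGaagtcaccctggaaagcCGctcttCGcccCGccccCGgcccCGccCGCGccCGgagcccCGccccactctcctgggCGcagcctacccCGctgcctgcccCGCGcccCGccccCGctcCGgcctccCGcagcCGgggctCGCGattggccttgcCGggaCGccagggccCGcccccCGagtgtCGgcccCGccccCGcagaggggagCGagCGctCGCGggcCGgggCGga
GNG11 (chr7:93921485-93921734, + strand): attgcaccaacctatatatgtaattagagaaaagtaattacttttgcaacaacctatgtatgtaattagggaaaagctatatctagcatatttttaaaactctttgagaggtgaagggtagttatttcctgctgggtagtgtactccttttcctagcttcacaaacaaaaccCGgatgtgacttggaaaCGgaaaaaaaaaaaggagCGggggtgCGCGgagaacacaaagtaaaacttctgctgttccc

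The GNG12 stretch holds 23 CG dinucleotides, that of GNG4 holds 20, that of GNG7 holds 36 and that of GNG11 holds 5. Over all 35116 promoters of the RefSeq table the median was 11, and the quartiles were 3 and 23. All 10 genes had at least 1 promoter in the table, and GNG2 had 5. The genes called by limma all had 20 or more, with 30 in GNG10 and 23 in GNG5. GNG13 had 7, GNG3 had 6, GNG2 had 0 to 6 over its 5 starts and GNG8 had 14. GNG7 therefore had the most CG dinucleotides of the 10 genes and a level below the baseline on every array. The motif GGGCGG, searched on both strands, was found before 7 of the 10 genes and in 42.6% of all promoters. The motif TATAAA, also searched on both strands, was in none of the 14 stretches of the 10 genes (0 of 14) and in 10.7% of all promoters. Such matches describe the letters in this window and are not binding sites.

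**Figure D2:**
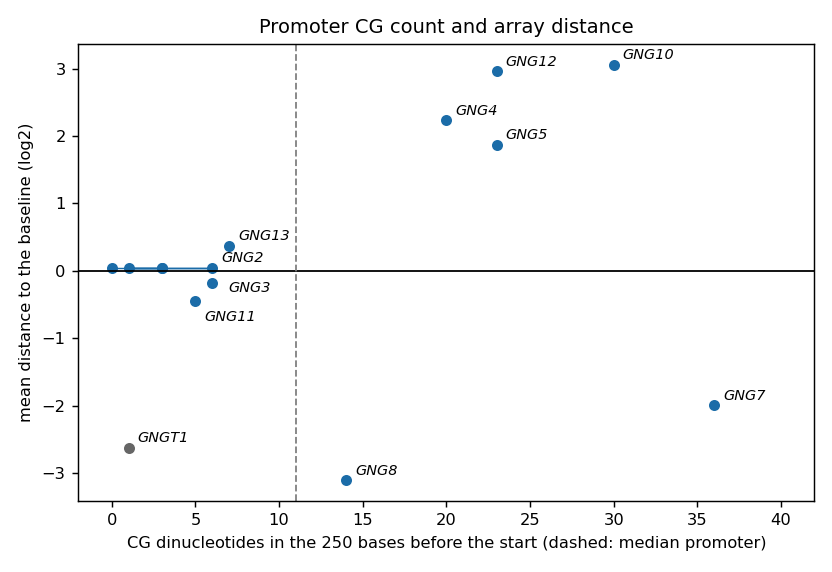
Mean distance to the baseline over 4 arrays (vertical axis, log2) against the number of CG dinucleotides in the 250 bases before the start (horizontal axis), with 1 point per promoter, the retinal gene GNGT1 in grey and the 5 starts of GNG2 joined by a line. The dashed line marks the median promoter at 11, and the genes with 20 or more are GNG12, GNG4, GNG5, GNG10 and, below the baseline, GNG7.

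GNG10, GNG12, GNG5 and GNG11 are the members known from many tissues. GNG10 had levels of 13.54, 13.19, 13.34 and 12.57 log2 units on replicates 1 to 4. Replicate 4 was the lowest and still lay 2.25 above its own baseline. The mean distance was 3.06 ± 0.79 log2 units (SD, n = 4), which placed the gene at the 83.1 percentile of all genes (limma adjusted p = 1.03e-17). All 3 GNG10 probes were above the baseline on all 4 arrays, with mean distances of 3.63, 2.88 and 2.34.

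GNG10 shares its DNA with a second RefSeq gene, DNAJC25-GNG10, a read-through that begins at DNAJC25 and runs through GNG10. The array has a target for each of the 3. The read-through target stood 2.33 ± 0.74 log2 units above the baseline (SD, n = 4), at 3.22, 2.55, 2.07 and 1.49 on replicates 1 to 4. These distances fell from replicate 1 to replicate 4, as did those of GNG10, at 4.07, 3.25, 2.65 and 2.25. The distances of GNG12 and GNG5 fell in the same order, and the subtracted baseline was lowest on replicate 1, at 9.47. In levels both targets were lowest on replicate 4, as were GNG12 and GNG5. The read-through had levels of 12.69 on replicate 1 and 12.76 on replicate 3, while GNG10 was highest on replicate 1. The read-through probe numbered 452 had a level of 7.76 on replicate 1, where the probes numbered 756 and 1098 were highest. The target of DNAJC25 alone stood at -2.30 ± 1.24 (SD, n = 4) and was below the baseline on all 4 arrays. Probe sequences were not used here, so whether the GNG10 and read-through targets measure the same bases was not tested. Nor was the part of the GNG10 signal that belongs to either transcript. The RefSeq table also holds 1 pseudogene of GNG10.

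GNG12, a subunit known as a substrate of protein kinase C, had levels of 13.05, 13.22, 13.30 and 12.69 log2 units on replicates 1 to 4. These were close together, with an SD of 0.27. The mean distance was 2.96 ± 0.57 (SD, n = 4, limma adjusted p = 9.59e-17), at the 81.9 percentile of all genes. Its 3 probes were above the baseline on all 4 arrays, but the middle one stood at 4.04 and the others at 1.86 and 1.70. The first bases of GNG12 overlap the long non-coding gene GNG12-AS1, which had no target on the array.

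GNG5 had levels of 12.30, 12.12, 12.13 and 11.35 log2 units on replicates 1 to 4. The distances were 2.83, 2.18, 1.43 and 1.03, all above 0, with a mean of 1.87 ± 0.80 (SD, n = 4, limma adjusted p = 1.62e-07). The gene level rested on 1 probe. The probe numbered 639 had levels of 13.68, 13.59, 13.48 and 12.60, a mean distance of 3.23 ± 0.87 (SD, n = 4). The probes numbered 152 and 165 stood at -0.46 ± 0.68 and -0.49 ± 0.78 (SD, n = 4 for each) and were each above the baseline on 1 of 4 arrays. With the median of the probes in place of their mean, GNG5 stood at -0.09 (limma adjusted p = 1.0), and with the baseline at 3 SD at 0.55 (limma adjusted p = 0.231). The last bases of GNG5 overlap RPF1, whose own target stood at 3.59 log2 units, and the table lists 4 pseudogenes of GNG5 and the copy GNG5B, none with a target. Labelling from double-stranded cDNA with random primers keeps no strand, and the part of such neighbours and copies in the signal was not tested.

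GNG11, the farnesylated member of the list, had levels of 10.48, 9.17, 9.39 and 9.61 log2 units on replicates 1 to 4. It lay above the baseline on replicate 1, by 1.01, and below it on the other arrays, at -0.71 to -1.30. The mean distance was -0.44 ± 1.00 (SD, n = 4), a distance within the spread between arrays. Its probes stood at -2.73, -0.51 and 0.27, the last one 2.06 above the baseline on replicate 1 and below it on the others.

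GNG2, GNG3, GNG4 and GNG7 are best known from the nervous system, although GNG2 is also found elsewhere and is the usual partner in recombinant dimers with GNB1. GNG4, a gene of the developing and adult brain, had levels of 11.63, 12.94, 12.14 and 12.64 log2 units on replicates 1 to 4. Replicates 2 and 4 were higher than 1 and 3, and all 4 lay above their baselines, by 2.16, 3.01, 1.45 and 2.32. The mean distance was 2.23 ± 0.64 (SD, n = 4, limma adjusted p = 3.79e-10), at the 72.5 percentile of all genes. All 3 GNG4 probes were above the baseline on all 4 arrays, at means of 2.93, 1.28 and 2.00.

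GNG2 had levels of 9.84, 10.44, 10.27 and 10.06 log2 units on replicates 1 to 4. The distance was 0.37 and 0.50 on replicates 1 and 2 but -0.42 and -0.26 on replicates 3 and 4, the pair with the higher baselines. The mean was 0.05 ± 0.46 (SD, n = 4, limma adjusted p = 0.856), and it lay below 0 without replicate 1 (-0.06) and without replicate 2 (-0.11). The probe numbered 2353 was above the baseline on all 4 arrays, at 0.84 ± 0.36 (SD, n = 4), and the other probes stood at -0.60 and -0.70.

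GNG3 had levels of 9.83, 8.68, 11.25 and 9.93 log2 units on replicates 1 to 4, an SD of 1.05 and the widest spread among the 10 genes. It was above the baseline on replicates 1 and 3, by 0.36 and 0.56, and below it on replicates 2 and 4, at -1.26 and -0.39. The mean distance was -0.18 ± 0.83 (SD, n = 4), and without replicate 2 it was 0.18 (limma adjusted p = 0.678). The whole of GNG3 lies within the interval of BSCL2, the seipin gene, in the RefSeq table. The distances of BSCL2 were 3.74, 1.06, 2.54 and 1.83, a mean of 2.29 ± 1.14 (SD, n = 4). By distance both genes stood lowest on replicate 2, while the highest was replicate 1 for BSCL2 and replicate 3 for GNG3. By level both were lowest on replicate 2 and highest on replicate 3. So was CHTF18, a gene that overlaps GNG13 and not GNG3, at 10.22 and 11.58 log2 units. The BSCL2 levels on replicates 1 and 3 were close, at 13.21 and 13.23 log2 units. The part of BSCL2 in the GNG3 signal was not tested.

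GNG7, a subunit of striatal neurons, had levels of 7.30, 8.40, 8.17 and 8.59 log2 units on replicates 1 to 4. Every array lay below its baseline, at -1.54 to -2.52, with a mean distance of -1.99 ± 0.44 (SD, n = 4). None of its 3 probes was above the baseline on any array. Without the 2 highest control genes, or with olfactory receptor or Y-linked genes as controls, GNG7 stood at 0.095 to 0.34 log2 units, and limma called it under none of these (adjusted p = 0.157 to 0.541).

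GNG13 and GNG8 are known from sensory cells, GNG13 from taste cells and retinal bipolar cells and GNG8 from olfactory neurons. GNG13 had levels of 9.88, 10.96, 10.46 and 10.60 log2 units on replicates 1 to 4. The distances were 0.41, 1.03, -0.23 and 0.28, above the baseline on 3 of 4 arrays, with a mean of 0.37 ± 0.51 (SD, n = 4, limma adjusted p = 0.295). The probes of GNG13 spanned 5.05 log2 units, from -3.87 ± 0.35 at the probe numbered 3 to 1.18 ± 0.40 at the probe numbered 891 (SD, n = 4 for each). The probe numbered 892 had levels of 10.45, 11.37, 8.70 and 11.13, so that replicate 3 alone was below its baseline. On replicate 3 the probe numbered 891 had 11.86, the highest of its levels. The reason for this difference between the probes was not tested. The mean of the log2 probe values put GNG13 at -0.46, below the baseline. The last bases of GNG13 overlap CHTF18, a gene for sister chromatid cohesion, whose own target stood at 0.92 log2 units (limma adjusted p = 0.00975). As with the other overlapping genes, its part in the signal was not tested.

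GNG8 had levels of 6.20, 6.57, 7.64 and 7.62 log2 units on replicates 1 to 4. These values lay among those of the 8 low control genes, which ran from 6.05 to 7.72. The mean distance was -3.10 ± 0.29 (SD, n = 4), at the 14.1 percentile of all genes, and GNG8 stayed below the baseline under every alternative that was run.

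**Figure D3:**
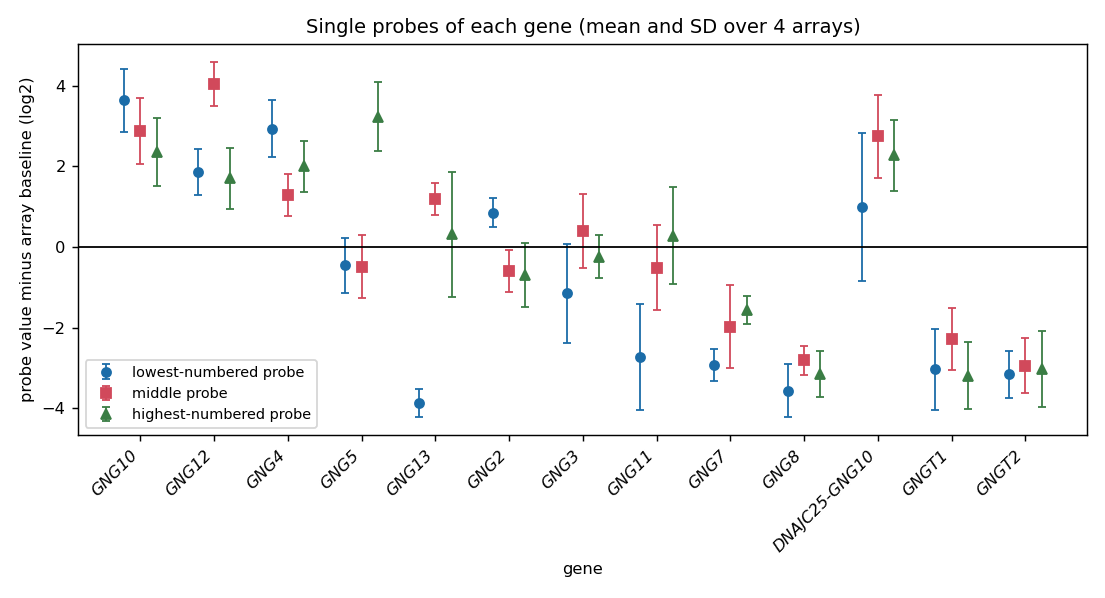
Probe value minus the array baseline (vertical axis, log2) for each of the 3 probes of a gene, as mean and SD over the 4 arrays. GNG10, GNG12 and GNG4 have all 3 probes above 0 and GNG7 and GNG8 have none, while GNG5 has 1 probe at 3.23 and the others below 0.

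Single probes thus divided the family into 3 groups. Of 30 probes, 15 had a mean distance above 0. The 3 genes GNG10, GNG12 and GNG4 had all their probes above the baseline, which was so for 34.9% of the named targets with 3 probes. GNG7 and GNG8 had none, as had 40.7% of those targets. The probes of the other 5 genes disagreed, against 24.4% of all named targets. The probes of a gamma subunit differed by a median of 1.59 log2 units, and those of all named targets by 1.48.

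The order of the distances was GNG10, GNG12, GNG4, GNG5, GNG13, GNG2, GNG3, GNG11, GNG7 and GNG8. Each probe binds its transcript with its own affinity, so this order describes the signal over the baseline and not the amount of each message. Some neighbours did not differ beyond the spread between arrays. The gap was 0.09 ± 0.27 log2 units between GNG10 and GNG12, 0.36 ± 0.86 between GNG4 and GNG5, 0.23 ± 1.14 between GNG2 and GNG3 and 0.26 ± 1.15 between GNG3 and GNG11 (SD, n = 4 for each). The gaps that were larger than their SD, with the same sign on all 4 arrays, were those from GNG12 to GNG4 at 0.73 ± 0.66, from GNG5 to GNG13 at 1.50 ± 0.72, from GNG13 to GNG2 at 0.33 ± 0.25, from GNG11 to GNG7 at 1.55 ± 1.10 and from GNG7 to GNG8 at 1.11 ± 0.54 (SD, n = 4 for each).

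Replicates 2 and 4 lay on the same side of replicates 1 and 3 for some members. The levels of GNG4, GNG13 and GNG7 were higher on both of replicates 2 and 4, by 0.90, 0.61 and 0.76 log2 units on average, and 18.5% of all genes were arranged so. The levels of GNG10 and GNG5 were lower on both, with differences of -0.56 and -0.48, as was the case for 22.2% of all genes. The neuronal markers NEFM, low on replicates 2 and 4, and SYT1, high on them, divided the arrays the same way, as given above. Their part in these differences was not tested.

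The retinal gamma subunits served as the closest comparison. GNGT1 had levels of 7.23, 7.01, 7.90 and 7.79 log2 units on replicates 1 to 4, and GNGT2 had 5.91, 7.40, 7.20 and 7.93. Both were below the baseline on all 4 arrays, at mean distances of -2.62 ± 0.30 and -2.99 ± 0.62 (SD, n = 4 for each). The levels of GNG8, from 6.20 to 7.64, lay within the range of the retinal subunits.

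The place of the baseline decided the call of the middle genes. The control genes SPATA13 and AFG2A, which the study lists as SPATA5, had mean levels of 9.72 and 9.97, far above the other 8 control genes, and without them the baseline fell from 10.1 to 7.78 log2 units. With that baseline 9 of the 10 gamma subunits were above it, all but GNG8, while the rule then called 74% of all genes. With olfactory receptor genes as controls it was also 9, against 71.4% of all genes, with a baseline at 1 SD it was 8, against 64.3%, and with 3 SD it was 4, against 39.1%. The last 4 were GNG10, GNG12, GNG4 and GNG5. GNG10, GNG12 and GNG4 kept a positive distance and a limma call under all alternatives run, with ranges of 1.74 to 5.38, 1.65 to 5.29 and 0.92 to 4.56 log2 units.

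**Figure D4:**
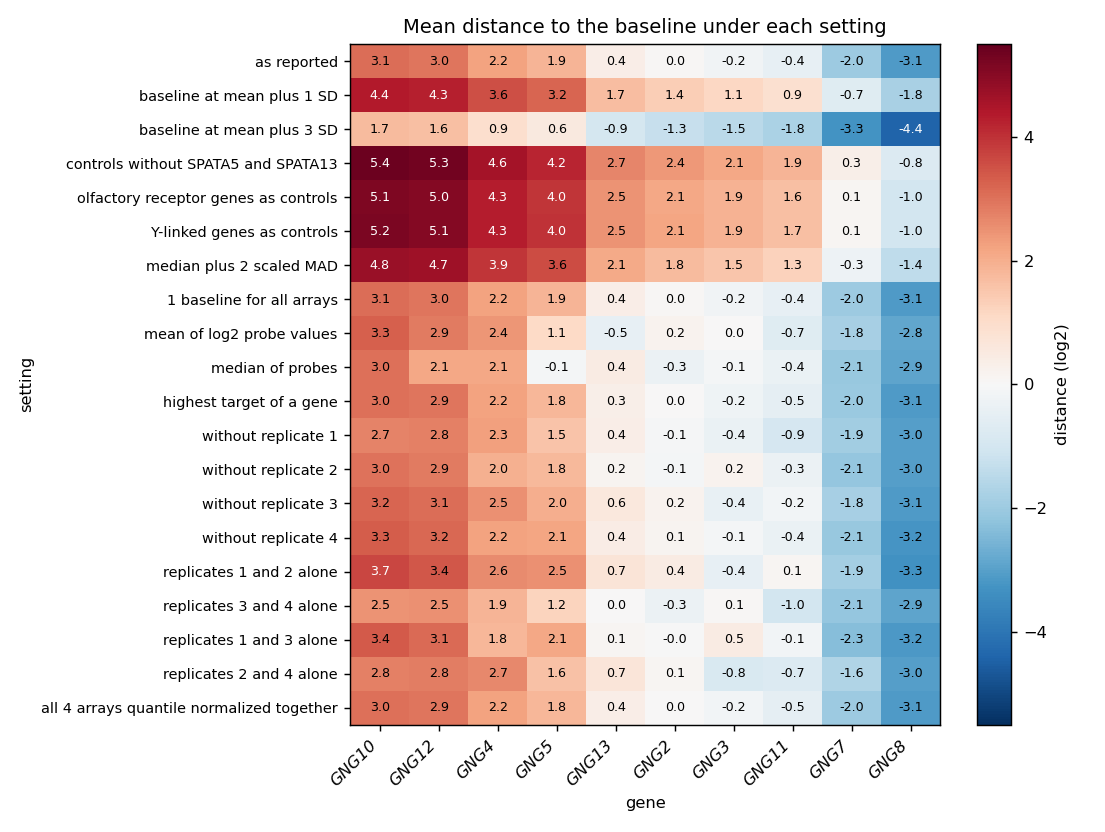
Mean distance to the baseline (colour and printed value, log2) of each gamma subunit gene (columns) under the reported setting and each alternative (rows), with red above and blue below the baseline. GNG10, GNG12 and GNG4 are above it in every row and GNG8 below it in every row.

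A gamma subunit needs a beta partner, chaperones and lipid-processing enzymes before it can signal. For the counts that follow, 52.7% of all genes were above the baseline and limma called 45.9%. On all 4 arrays, 45% of all genes were above the baseline and 39.8% below it. All 5 beta subunits were above the baseline on all 4 arrays, with GNB1 at 4.14 ± 0.69, GNB2 at 3.67 ± 0.38 and GNB4 at 1.83 ± 0.76 log2 units (SD, n = 4 for each). GNB5, which pairs mainly with RGS proteins, stood at 1.26 ± 0.64. GNB3, the partner of GNG13 in taste cells, stood at 0.48 ± 0.44 (SD, n = 4, limma adjusted p = 0.182). Of 10 genes for dimer assembly, the chaperonin CCT subunits, DNAJC14 and PDCL, 9 were above the baseline and 9 were called by limma, with a median distance of 4.77. CCT3 at 5.54 ± 0.74, CCT7 at 5.35 ± 0.61 and TCP1 at 5.18 ± 0.61 stood highest (SD, n = 4 for each). The exception, named after its value was seen, was PDCL, which encodes the phosducin-like cochaperone of beta subunits, at -0.33 ± 0.72 (SD, n = 4).

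The enzymes that finish the gamma chain were all above the baseline and called by limma, 8 of 8 with a median distance of 3.00. These were the genes for the enzymes that attach the farnesyl or geranylgeranyl lipid, FNTA, FNTB and PGGT1B, the lipid donors' synthases FDPS and GGPS1, the proteases RCE1 and ZMPSTE24 and the methyltransferase ICMT. ICMT stood at 3.95 ± 0.52, FDPS at 3.93 ± 0.73 and ZMPSTE24 at 3.66 ± 0.81 log2 units (SD, n = 4 for each). Of 3 KCTD genes, adaptors of the ubiquitin ligases that remove beta-gamma dimers, all were above the baseline and 2 were called, KCTD5 at 3.34 ± 0.43 and KCTD2 at 2.71 ± 0.55 (SD, n = 4 for each). KCTD17 stood at 0.44 ± 1.01 (SD, n = 4, limma adjusted p = 0.221).

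Of 21 effectors of the dimer 5 were above the baseline, PLCB3, ADCY7, PIK3CB, GRK3 and PLCB1, against 52.7% of all genes. Of these, limma called 4, all but PLCB1, against 45.9% of all genes. PLCB3 stood at 2.14 ± 0.32, ADCY7 at 1.66 ± 0.31 and PIK3CB at 1.62 ± 0.92 log2 units (SD, n = 4 for each). The median of the list was -2.78. The following genes were named after their values were seen. The 4 potassium channel genes KCNJ3, KCNJ5, KCNJ6 and KCNJ9, whose channels the dimer opens, were below the baseline on all 4 arrays. So were RGS6, RGS7, RGS9 and RGS11, the RGS proteins with a gamma-like domain that binds GNB5, at -1.71 to -2.37. These genes were chosen for what they do with the dimer, and no test of the lists was made.

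**Figure D5:**
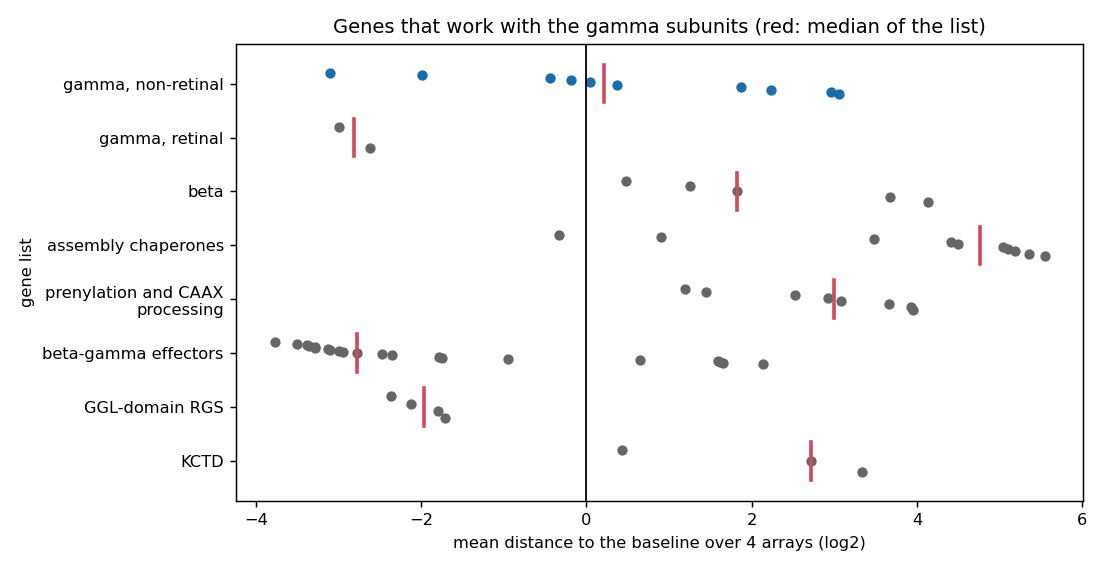
Mean distance to the baseline over 4 arrays (horizontal axis, log2), with 1 point per gene, for the 10 gamma subunits in blue and lists of genes that work with them in grey. The red bar is the median of each list, at 0.21 for the gamma subunits, 4.77 for the assembly chaperones, 3.00 for the processing enzymes and -2.78 for the effectors.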

How the data were processed

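Total RNA of 4 HEK293 cultures was copied into double-stranded cDNA, labelled with Cy3 and measured on single-colour NimbleGen arrays of 60-base probes for human build HG18. For each of 71998 probes the authors deposited a log2 value on every array. Their methods name NimbleScan and a log2 step, and the submitters' processing notes name RMA. Which steps of RMA were applied is not given in the sources used here, and the values had the form that quantile normalization of replicates 1 and 2, and separately of 3 and 4, gives. Spot background was not examined, since only these log2 values were used.

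Accessions were matched to a RefSeq table of GRCh38.p14, used for names and neighbours, and gave 17217 genes from 19125 targets. Probe values of a target were averaged on the linear scale before log2 was taken again, and targets of a gene were averaged in log2. The baseline used 10 of the study's 11 control genes, since PYY2 was not matched. limma 3.58 in R 4.3 tested distances against 0, one-sided, with Benjamini-Hochberg adjustment over all genes at 0.05. The test was also run on simulated data, with independent genes that all had the same SD. That run could not check the effect of a shared baseline or of unequal gene variances. The prior degrees of freedom of limma were infinite, so each gene had the standard error 0.351. The tests are not independent because all genes share the baseline of an array. The smallest p of an exact sign-flip test with 4 arrays is 0.0625. Replicate counts limit the precision, and arrays give no read depth. Genes named are the members, the retinal and beta subunits, the controls and, of each list, those above the baseline, with up to 3 by value. Others, such as overlapping genes and list members below the baseline, were named after their values were seen. Members and lists were chosen with earlier results of these data known. Alternatives changed the baseline, its control genes, the probe and gene summaries, the arrays, the normalization, the call rule and the variance model. Protein sequences were not analysed here.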

Additional observations from a re-analysis of the deposited data

Results flagged for a closer look

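The levels and distances of the gamma subunits, the retinal ones included, and of the read-through DNAJC25-GNG10, with the levels of their single probes, gave 65 measures, each over 4 arrays. In 2 of them the gap between one end value and its neighbour, divided by the range, was beyond the critical value of Dixon's test, and chance alone marks about 1 in 20. On the probe of GNG10 numbered 536 it was replicate 4, with a level of 12.32 log2 units where the remaining arrays had 13.14 to 13.29 (ratio 0.847). On the probe of GNG2 numbered 2353 it was replicate 1, with a level of 10.58 where the remaining arrays had 11.05 to 11.08 (ratio 0.947). Neither gene's own level or distance was marked.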

How the results depend on the processing

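The count of gamma subunits above the baseline was 4 to 9 under the alternatives run and 5 to 6 without single replicates. The limma count of 4 remained 4 without any single replicate. It became 8 with 1 SD, 8 without SPATA5 and SPATA13, 8 with olfactory receptor genes, 8 with Y-linked genes and 8 with the median and scaled median absolute deviation (MAD), where GNG13, GNG2, GNG3 and GNG11 joined. The share of all genes that limma called is given here only for the reported setting, at 45.9%. The changes in the limma count therefore cannot be set against those over all genes. The rule of the mean distance called 52.7% of all genes as reported and 64.3% with 1 SD. It called 74% without SPATA5 and SPATA13, 71.4% with olfactory receptor genes and 39.1% with 3 SD. The limma count of gamma subunits fell to 3 with 3 SD and to 3 with the median of probes, where GNG5 was lost. Joint quantile normalization left both counts as they were. With 3 SD the distance changed sign for GNG13 (-0.95) and GNG2 (-1.27). With the median of probes it did so for GNG5 (-0.092) and GNG2 (-0.34), and with the mean of log2 probe values for GNG13 (-0.46) and GNG3 (0.00068). GNG3 turned positive with 1 SD (1.14), without SPATA5 and SPATA13 (2.14), with olfactory (1.90) or Y-linked controls (1.92) and with the MAD (1.52). In that order GNG11 stood at 0.88, 1.88, 1.64, 1.66 and 1.26. GNG7 stood at 0.34 without SPATA5 and SPATA13, at 0.095 with olfactory and at 0.11 with Y-linked controls. On replicates 3 and 4 alone GNG2 was at -0.34 and GNG3 at 0.083, on replicates 1 and 3 alone GNG2 was at -0.027 and GNG3 at 0.46, and on replicates 1 and 2 alone GNG11 was at 0.12. Leaving out single replicates gave -0.11 to 0.20 for GNG2 and -0.43 to 0.18 for GNG3. The cause was not tested. No paired analysis was possible because there was 1 group.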
